A study of Mus musculus with 6 samples.

Results

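Integrins and cadherins are the main receptors by which cells hold on to the extracellular matrix and to each other, and their transcripts were compared between a tetraploid and a diploid line of mouse embryonic fibroblasts. The genes were all those whose array symbol names an integrin alpha subunit, an integrin beta subunit from beta1 to beta8, or a numbered cadherin, and that had a probe set assigned to no other gene. This gave 49 of the 19939 genes tested, 26 integrin and 23 cadherin genes. A gene with several such probe sets is represented by that of highest mean level. The rule itself reads gene names, while the set was chosen with earlier results of these data known. Of the cadherin genes, 18 encode classical type I or type II cadherins, while Cdh13, Cdh16, Cdh17, Cdh23 and Cdh26 are numbered with them but are not classical.

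The tetraploid samples were embryonic fibroblasts with an abnormal DNA content from a line coded 174, which the series title describes as transformed. The diploid samples were embryonic fibroblasts of a line coded FW, given as the normal control. Both were grown in the same serum-containing medium until nearly confluent, and each line was measured on 3 whole-transcript arrays of ribosome-depleted RNA. The labels give no strain, age, passage or agent of transformation, nor whether cultures were kept apart for the 3 samples. With 1 line per ploidy, effects of line, transformation and ploidy cannot be told apart. The p-values therefore measure the spread between these samples alone, which may be technical.

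An integrin is a pair of 1 alpha and 1 beta subunit. The pair binds matrix proteins outside the cell and, through talin and kindlin, the actin cytoskeleton inside it, and the alpha subunit largely sets the ligand: collagens, laminins, or proteins with the arginine-glycine-aspartate (RGD) motif such as fibronectin and vitronectin. Classical cadherins bind cadherins of neighbouring cells and are tied to actin through catenins. Fibroblasts are known for N-cadherin (Cdh2) and cadherin-11 (Cdh11), and epithelia for E-cadherin (Cdh1).

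Levels are the deposited log2 values, so a difference of 1 is a 2-fold change, and they compare a gene with itself across arrays, not with another gene. A background level was set on each array at the 95th percentile of 1027 olfactory receptor genes, which fibroblasts are not known to use. It lay between 7.01 and 7.41. Of the 49 genes, 15 lay above it on all 6 arrays, 23 on all diploid arrays, 16 on all tetraploid arrays and 16 on no array. Over all 19939 genes these numbers were 8639, 9916, 9342 and 7063. Array medians over all probe sets lay between 7.24 and 7.28. Of 12 fibroblast markers, 12 lay above background on all diploid arrays and 10 on all tetraploid arrays. Among them Col1a1, Lum and Fap were called lower and Fbln1 higher in the tetraploid line, beside 7.75% and 6.08% of all genes. The rest were not called. Of those, Pdgfra, Dcn and S100a4 differed by 1.39, 0.46 and 0.29, and the others by -0.19 to -1.36. The summed linear signal of all 12 markers was 42370 to 56368 on the tetraploid and 57891 to 63551 on the diploid arrays. The part of that shift in the integrin and cadherin values was not tested.

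Integrin genes were mostly lower in the tetraploid line where they differed. The fit with limma, adjusted over all 19939 genes by the Benjamini-Hochberg method and called at an adjusted p below 0.05, gave 15 falls and 1 rise among the 49 genes. The falls were 30.6% of them, beside 7.75% of all genes, and the rise was 2.04%, beside 6.08%. Of the 26 integrin genes 12 fell, 1 rose and 13 did not pass, and of the 23 cadherin genes 3 fell, 0 rose and 20 did not pass. At an unadjusted limma p below 0.05, also 0 cadherins were higher and 5 were lower, beside 14.4% and 15% of all genes. With values raised to background, 12 of the 49 genes fell and 2 rose, beside 9.97% and 9.83% of all genes. The median difference was -0.999 for integrins, 0.02 for cadherins and 0.07 for all genes. In 20 of the 49 genes all tetraploid values lay below all diploid values (18.2% of all genes), and in 2 all lay above (19.1%). In whole cultures, fewer cells of a type and less RNA per cell cannot be told apart. Without diploid array 1 the falls numbered 7 and without diploid array 2 they numbered 9, while those over all genes went from 1545 to 684 and 578.

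**Figure D1:**
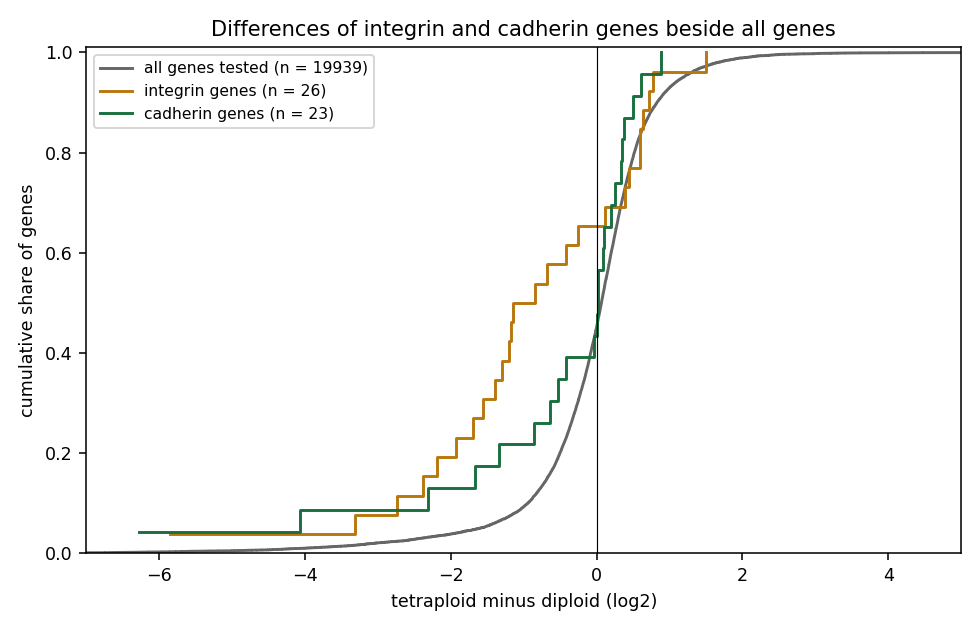
Cumulative share of genes (vertical axis) against the tetraploid minus diploid difference in log2 units (horizontal axis) for the 26 integrin genes, the 23 cadherin genes and all 19939 genes tested. The integrin curve is displaced to the left with a median of -0.999, while the cadherin curve crosses its midpoint at 0.02, near the 0.07 of all genes, with a tail of a few low genes.

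**Figure D2:**
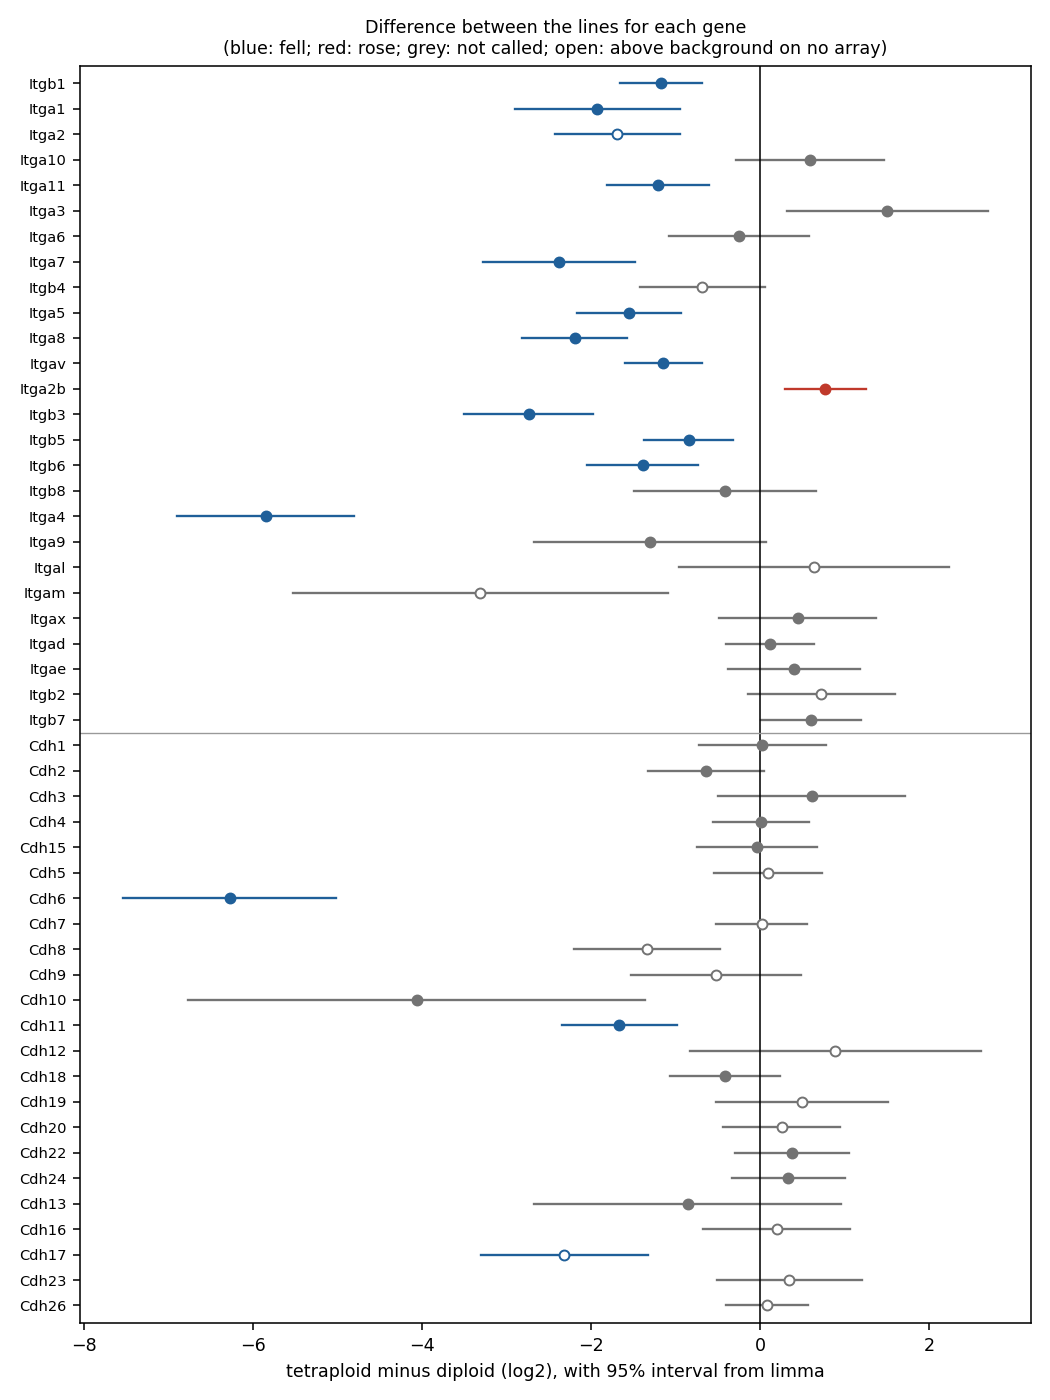
Tetraploid minus diploid difference in log2 units for each of the 49 genes, with the 95% interval from limma. Blue genes fell, the red gene rose, grey genes were not called, and open circles stand for the 16 genes above background on no array; Cdh6 at -6.28 and Itga4 at -5.85 lie farthest to the left.

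The beta1 subunit gene Itgb1, whose product pairs with more alpha subunits than any other beta chain, fell. Tetraploid arrays 1 to 3 read 11.78, 11.97 and 12.23, and diploid arrays 1 to 3 read 13.29, 13.15 and 13.07. Later values keep this array order within each line, and the tetraploid line comes first in each comparison written with "against". The groups did not overlap, and every array lay far above background. The difference was -1.18 ± 0.21 (SE), a 2.26-fold lower level (limma adjusted p = 0.0144). The call ended without diploid array 1 or 2 (adjusted p 0.0633 and 0.0659), with differences of -1.12 and -1.18.

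Among the 4 collagen receptor genes 3 fell and 1 did not pass, while 7.75% of all genes fell. Itga11, the alpha subunit of a fibrillar collagen receptor of fibroblasts, stood at 9.28, 9.52 and 9.15 in the tetraploid line and at 10.68, 10.81 and 10.08 in the diploid line. It was 2.31-fold lower, by -1.21 ± 0.26 (SE; limma adjusted p = 0.0258). Itga1, whose product binds collagen IV among other collagens, stood at 6.72, 6.77 and 8.23 against 9.21, 9.20 and 9.09. Tetraploid arrays 1 and 2 were below background and array 3 above it, so the lower level was uneven within that line. Its difference was -1.93 ± 0.41 (SE; adjusted p = 0.0269). Itga2, the platelet and epithelial collagen receptor subunit next to Itga1 on chromosome 13, was called lower from values that nowhere exceeded background (4.33 to 4.93 against 5.73 to 6.73). No fold is given for it, and raising values to background turned its difference to 0.12 (adjusted p = 0.463). Itga10, a cartilage collagen receptor subunit, lay between 5.82 and 7.58 on the 6 arrays, above background on 1, and did not pass.

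The calls of these genes depended on single arrays. That of Itga11 ended without any 1 tetraploid array (adjusted p 0.0556, 0.0506 and 0.0640 for arrays 1 to 3) or without diploid array 1 or 2 (0.0947 and 0.104). That of Itga1 held without tetraploid array 3 and ended without tetraploid array 1 or 2 (0.0657 and 0.0803) or any 1 diploid array (0.0785 to 0.0906). That of Itga2 ended without diploid array 1 or 3 (0.0586 and 0.0632).

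Of the 4 laminin receptor genes 1 fell, 0 rose and 3 did not pass. At an unadjusted limma p below 0.05, 1 was higher and 1 lower. Itga7, the alpha subunit best known from muscle, stood at 7.05, 6.08 and 7.37 in the tetraploid line against 9.40, 9.49 and 8.77 in the diploid line. Of the tetraploid values only that of array 3 exceeded background. The deposited difference was -2.38 ± 0.38 (SE), 5.22-fold lower (limma adjusted p = 0.0110), and it was called in all 6 fits without 1 array. With values raised to background the difference was -1.90. Skeletal muscle markers are given beside Itga7: of 12 measured, Des, Actc1 and Acta1 fell, while 7.75% of all genes fell. Tnnt3, above background on all 6 arrays, Myod1 and Myog did not pass (-0.09, 0.06 and -0.11). The summed signal was 1059 to 1419 on the tetraploid and 4093 to 6665 on the diploid arrays, where Acta1 read 11.11 to 12.16. Of these markers Ckm, Myf5, Myf6, Myh3, Myh8 and Pax7 were above background on no array, and their part in the Itga7 values was not tested. Itga3, the laminin-332 receptor subunit of epithelia, stood at 9.90, 9.38 and 7.94 against 7.996, 7.39 and 7.32. Tetraploid arrays 1 and 2 were above all diploid arrays, but array 3 lay among them. Its difference of 1.505 (95% interval 0.32 to 2.69) did not pass (adjusted p = 0.0961). Without tetraploid array 3 it was 2.07 and passed (adjusted p = 0.0178).

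Itga6, which pairs with beta1 or with the hemidesmosomal beta4, showed overlapping values. They were 8.15, 8.08 and 8.66 in the tetraploid line and 8.74, 7.85 and 9.06 in the diploid line. The difference was -0.25 (95% interval -1.08 to 0.58, adjusted p = 0.696). Itgb4 lay below background on every array, between 5.18 and 6.75.

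Of 8 genes of receptors for RGD proteins 6 fell, 1 rose and 1 did not pass. The share that fell, 75%, was that of the collagen receptor genes, while 7.75% of all genes fell and 6.08% rose. Each of the 2 groups counts a gene whose call ended with values raised to background, Itga2 and Itgb6. Itga5, the alpha subunit of the classical fibronectin receptor, stood at 10.55, 9.80 and 10.49 against 11.92, 11.68 and 11.90. The difference was -1.55 ± 0.26 (SE), 2.93-fold lower (limma adjusted p = 0.0124). The call ended without diploid array 1 (adjusted p = 0.0509, difference -1.51). Itgav, the alpha subunit shared by the vitronectin receptors, stood at 11.16, 10.92 and 11.22 against 12.34, 12.16 and 12.24. It was 2.22-fold lower (-1.15 ± 0.19, SE; adjusted p = 0.0124). Its call ended without diploid array 1 or 2 (adjusted p 0.0571 and 0.0564). Both genes were above background on all arrays and did not overlap between the lines.

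Itgb3, the beta subunit of the vitronectin receptor alphav-beta3, had the largest drop of the RGD receptor genes. The tetraploid arrays read 7.18, 6.68 and 7.73, the last of them alone above background, and the diploid arrays 10.27, 9.92 and 9.62. The deposited difference was -2.74 ± 0.32 (SE), 6.69-fold lower (limma adjusted p = 0.00419), and with values raised to background it was -2.50. Itga8, a receptor subunit for fibronectin and nephronectin found on smooth muscle and mesangial cells, stood at 7.64, 7.31 and 8.14 against 9.71, 10.04 and 9.93. Its difference was -2.20 ± 0.26 (SE), 4.58-fold lower (adjusted p = 0.00432). Itga8 was below background on tetraploid array 2, and with values raised to background its difference was -2.16. The values of array 2 in the tetraploid line were the lowest for both genes. Both were called in all 6 fits without 1 array and under each of the other alternatives.

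The remaining RGD receptor genes lay nearer the threshold. Itgb5, the other main partner of alphav in fibroblasts, stood at 11.15, 11.24 and 11.71 against 12.26, 12.30 and 12.08. It was 1.80-fold lower (-0.85 ± 0.22, SE; limma adjusted p = 0.0488), and the call held in 1 of the 6 fits without 1 array, that without tetraploid array 3 (adjusted p 0.0894 to 0.165 in the rest). Itga2b, the platelet fibrinogen receptor subunit, was the member that rose, from 7.08, 7.35 and 6.97 to 7.76, 7.93 and 8.02. Of its diploid values only that of array 2 exceeded background. The difference was 0.77 ± 0.20 (SE), 1.71-fold (adjusted p = 0.0490), and the call ended without any 1 array (0.0543 to 0.155). It also ended with array medians subtracted (0.0546) and with quantile normalization (0.0529). Itgb5 too lost its call with quantile normalization (0.0653).

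Beside that rise, the partner gene Itgb3 fell. Of 4 measured platelet markers, Pf4, Gp5 and Gp9 were above background on no array and Ppbp was called lower in the tetraploid line, with a summed signal of 159 to 238 on the tetraploid and 302 to 424 on the diploid arrays. Over all genes 7.75% fell. Ppbp exceeded background on 2 diploid arrays alone, and the part of these markers in the Itga2b values was not tested. Itgb6, the epithelial partner of alphav that activates latent TGF-beta, was called lower (5.52 to 5.996 against 6.82 to 7.65, adjusted p = 0.0218). A single diploid array exceeded background, and raising values to background ended the call (difference -0.02, adjusted p = 0.942). It also ended without tetraploid array 2 or 3 or diploid array 1 or 2 (adjusted p 0.0562 to 0.0678). Itgb8 lay between 5.48 and 7.05, above background on 1 array, and did not pass.

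Itga4, the alpha subunit that binds VCAM1 and a spliced segment of fibronectin, fell to values below background. The tetraploid arrays read 2.34, 3.32 and 4.13, all below background, and the diploid arrays 9.05, 9.41 and 8.90. The deposited difference was -5.85 ± 0.44 (SE; limma adjusted p = 9.31e-04). Against background the level was at least 3.55-fold lower. The call held in all 6 fits without 1 array and with values raised to background, where the difference was -1.83, beside -2.50 for Itgb3 and -2.16 for Itga8 on that scale. Itga9, the related subunit that binds tenascin-C, stood at 6.99, 4.48 and 6.05 against 7.06, 7.27 and 7.10. All tetraploid values were lower, but they lay below background and spread widely, and the gene did not pass (adjusted p = 0.191).

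Leukocyte integrins were not called: of 7 genes 0 rose, 0 fell and 7 did not pass. At an unadjusted limma p below 0.05, 1 was higher (Itgb7) and 1 lower (Itgam). Itgal, Itgam and the common beta2 chain gene Itgb2 were above background on no array. Itgam, the macrophage integrin of complement receptor 3, stood at 0.01, 1.63 and 2.99 in the tetraploid line and at 3.22, 5.20 and 6.15 in the diploid line. The tetraploid values all lay below the diploid ones, though the 6 values were scattered and adjusted p was 0.0608. The mean of 16 macrophage and leukocyte markers is given beside it, at 5.18, 6.74 and 7.52 on diploid arrays 1 to 3 and between 4.60 and 4.90 on the tetraploid arrays. Their summed linear signal was 966, 2403 and 4002 on the diploid arrays and 830 to 1278 on the tetraploid arrays. Of those 16 markers 3 fell (Lyz2, Cd53 and C1qa), while 7.75% of all genes fell. Lyz2 exceeded background on 2 diploid arrays, and Cd53 and C1qa on 1 each. Spi1, above background on all 6 arrays, and Csf1r did not pass (-0.14 and 0.18). Ptprc, Adgre1, Cd14, Fcgr3 and Tyrobp were above background on no array. The part of such cells in the integrin values was not tested. Itga4, which leukocytes also carry, had an SD of 0.26 over the diploid arrays, and the part of such cells in its values was not tested. Itgad was above background on all 6 arrays, between 7.39 and 7.91, and differed by 0.11 (95% interval -0.41 to 0.64). Itgax, Itgae and Itgb7 lay near background, between 6.07 and 7.81.

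**Figure D3:**
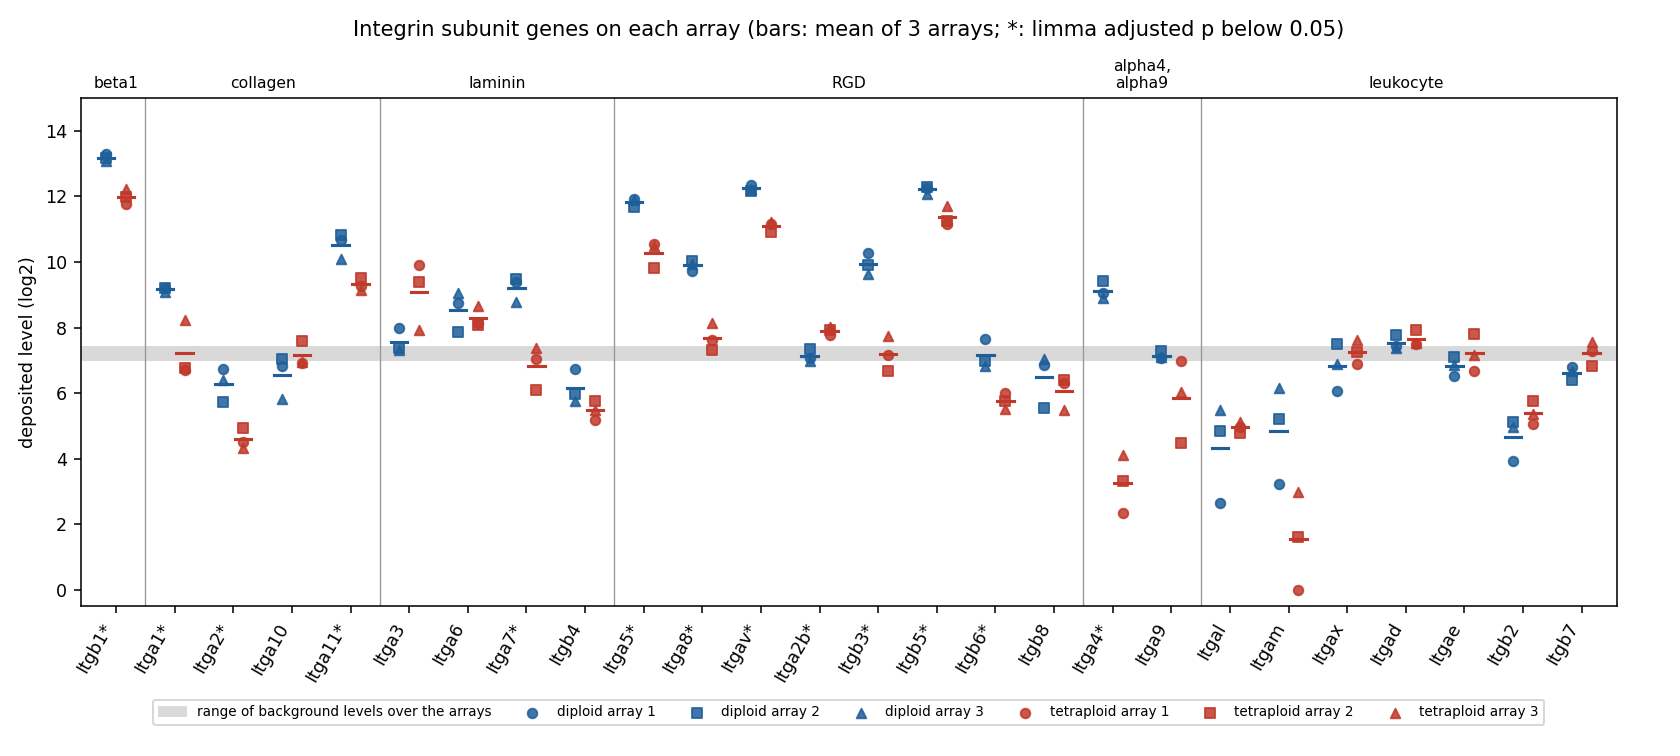
Deposited log2 level (vertical axis) of the 26 integrin genes on each array, grouped by ligand, with diploid arrays in blue, tetraploid arrays in red and bars for the mean of 3 arrays. The grey band spans the background levels of 7.01 to 7.41, and asterisks mark called genes; the groups of Itgb1, Itgav, Itga5, Itga8, Itgb3 and Itga4 are apart, while the leukocyte genes lie near or below the band.

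Integrins act as pairs, so the subunit genes were also read together. The 24 known pairs are not separate observations, since many share Itgb1 or Itgav. Of them, 11 had both genes above background on all diploid arrays and 6 on all tetraploid arrays. Those 6 were all among the 11: alpha11-beta1, alpha3-beta1, alpha6-beta1, alpha5-beta1, alphav-beta1 and alphav-beta5. In 4 of them both subunit genes fell, the exceptions being the pairs of alpha3 and alpha6 with beta1. The 5 pairs met in the diploid line alone were alpha1-beta1, alpha7-beta1, alpha8-beta1, alphav-beta3 and alpha4-beta1. In the first 4 of these the lacking subunit exceeded background on 1 or 2 tetraploid arrays, whereas Itga4 did so on 0. This counts transcripts above a level and says nothing of receptors on the cell surface.

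**Figure D4:**
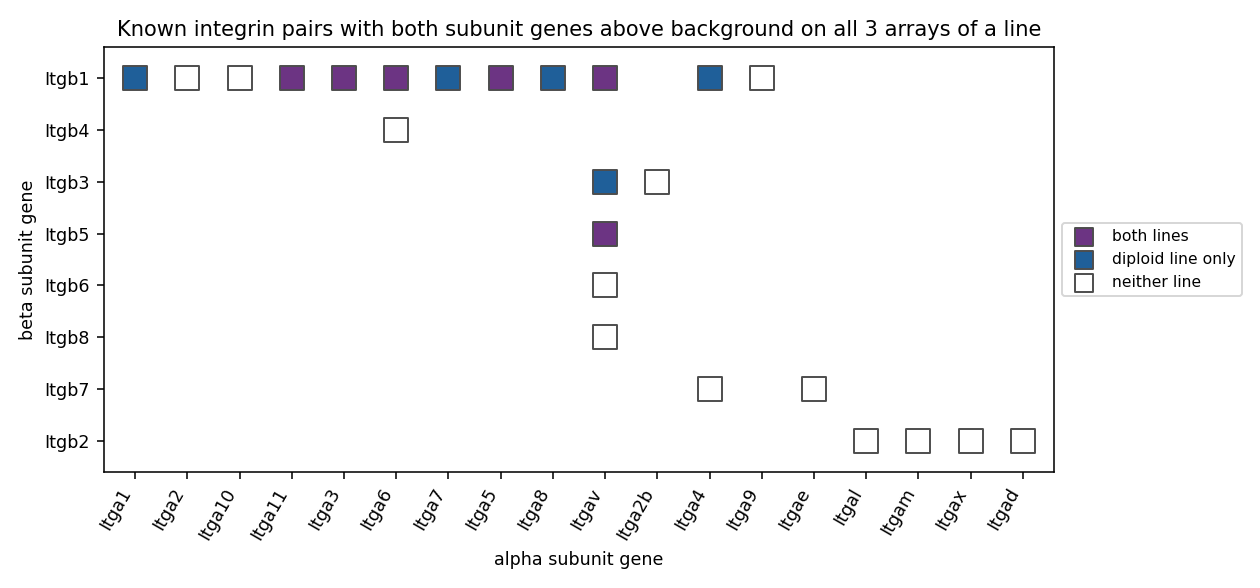
The 24 known integrin pairs, with alpha subunit genes on the horizontal and beta subunit genes on the vertical axis. Purple squares are the 6 pairs with both genes above background on all arrays of both lines, blue squares the 5 that met this in the diploid line alone, and white squares the rest.

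Type I cadherins, the family of E-, N- and P-cadherin, were not called: of 5 genes 0 rose, 0 fell and 5 did not pass. At an unadjusted limma p below 0.05, also 0 of these were higher and 0 lower. Cdh2, the N-cadherin of mesenchymal cells, stood at 9.95, 11.01 and 10.47 in the tetraploid line and at 11.19, 11.11 and 11.06 in the diploid line. The tetraploid values were all lower, array 2 by little. The difference was -0.64 (95% interval -1.33 to 0.05, limma adjusted p = 0.198). Cdh3, the P-cadherin, stood at 9.60, 11.30 and 10.83 against 9.44, 10.12 and 10.35, with array 1 of the tetraploid line inside the diploid range. It differed by 0.61 (95% interval -0.50 to 1.72, adjusted p = 0.448).

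Cdh1, the E-cadherin of epithelia and the chromosomal neighbour of Cdh3, was above background on all arrays. It stood at 7.69, 8.68 and 8.59 against 8.60, 8.14 and 8.14, with the diploid values inside the tetraploid range. The difference was 0.02 (95% interval -0.73 to 0.77). Of 13 epithelial markers 2 fell (Krt7 and Krt18), 0 rose and 11 did not pass, while 7.75% of all genes fell and 6.08% rose. Of the 13 markers Krt7, Krt8, Krt14, Cldn7, Esrp1, Grhl2 and Ocln were above background on no array, and Krt18 on 2 diploid arrays alone. Krt5, Epcam, Cldn4, Krt19 and Cldn3 did not pass (0.49, 0.42, 0.31, -0.08 and -0.07). The summed signal of the markers was 1395 to 2394 on the tetraploid and 1643 to 2060 on the diploid arrays. Cdh4, the R-cadherin, stood at 9.62, 10.22 and 9.81 against 9.61, 10.01 and 10.01. Its difference was 0.01 (95% interval -0.57 to 0.58). Cdh15, the M-cadherin of muscle, lay between 6.62 and 7.43, above background on 1 array of each line.

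Among the 13 type II cadherin genes, 2 fell, 0 rose and 11 did not pass, while 7.75% of all genes fell and 6.08% rose. Cdh11, the cadherin of loose mesenchyme and osteoblasts, stood at 10.70, 11.04 and 11.72 in the tetraploid line and at 12.75, 12.89 and 12.84 in the diploid line. The difference was -1.67 ± 0.29 (SE), 3.18-fold lower (limma adjusted p = 0.0138). The call ended without diploid array 2 or 3 (adjusted p 0.0615 and 0.0512, differences -1.64 and -1.66). Other probe sets that Cdh11 shares with other genes ran the opposite way and are given in the closing observations.

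Cdh6, the K-cadherin of developing kidney and neural crest, fell to values below background. The tetraploid arrays read 1.82, 0.48 and 2.56 and the diploid arrays 8.33, 7.41 and 7.96. The deposited difference was -6.28 ± 0.53 (SE; limma adjusted p = 0.00126). Its diploid values lay just above background, so the level was at least 1.52-fold lower, and raising values to background ended the call (difference -0.61, adjusted p = 0.0770). The call held in all 6 fits without 1 array.

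Cdh10, a brain cadherin near Cdh6 on chromosome 15, differed among the tetraploid samples themselves. It stood at 8.18 on tetraploid array 1 and at 3.77 and 3.67 on arrays 2 and 3, against 9.58, 9.25 and 8.99 on the diploid arrays. All tetraploid values were lower, and those of arrays 2 and 3 were below background. With that spread the difference of -4.07 (95% interval -6.77 to -1.36) did not pass (adjusted p = 0.0595). Without tetraploid array 1 it was -5.55 and passed (adjusted p = 7.85e-04). It also passed with values raised to background (-1.65, adjusted p = 0.00102).

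In gene order Cdh6, Cdh9, Cdh10 and Cdh12 follow each other on chromosome 15 with 0 protein-coding genes between neighbours, and Cdh18 comes 1 gene after Cdh12. Cdh9 and Cdh12 were above background on no array, and Cdh18 on 1 diploid array. The genes of that run above background on all diploid arrays were Cdh6 and Cdh10.

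The stretches just before the start of Itga4, Cdh6 and Cdh10 are printed because these genes were above background on all diploid arrays and at deposited values of 4.13 or less on 2 or 3 tetraploid arrays, where depth below background is not measured. They are 250 bases each from RefSeq (build GRCm38.p6), 5′ to 3′ along the gene, ending at the base before the most upstream listed start: Itga4 at chr2:79255176-79255425, plus strand, Cdh6 at chr15:13173676-13173925, minus strand, and Cdh10 at chr15:18820079-18820328, plus strand. Capitals mark any of 4 motifs searched on both strands.
Itga4: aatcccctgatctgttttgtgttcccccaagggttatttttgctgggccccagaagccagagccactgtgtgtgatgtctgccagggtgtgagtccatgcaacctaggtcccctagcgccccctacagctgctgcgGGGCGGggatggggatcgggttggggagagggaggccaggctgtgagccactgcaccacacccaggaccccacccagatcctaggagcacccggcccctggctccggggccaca
Cdh6: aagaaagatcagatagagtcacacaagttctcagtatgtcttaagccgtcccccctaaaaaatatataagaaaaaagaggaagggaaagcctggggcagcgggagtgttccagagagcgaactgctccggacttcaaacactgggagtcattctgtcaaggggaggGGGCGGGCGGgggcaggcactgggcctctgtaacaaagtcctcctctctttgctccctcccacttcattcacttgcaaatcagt
Cdh10: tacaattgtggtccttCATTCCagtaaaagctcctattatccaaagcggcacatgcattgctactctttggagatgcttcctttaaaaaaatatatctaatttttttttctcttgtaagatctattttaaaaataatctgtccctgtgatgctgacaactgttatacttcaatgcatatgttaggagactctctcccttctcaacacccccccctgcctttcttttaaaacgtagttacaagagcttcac
The motifs were the GC box (GGGCGG or CCGCCC), the TEAD site (CATTCC or GGAATG), the AP-1 site (TGAGTCA or TGACTCA) and the E-box bound by SNAI and ZEB proteins (CAGGTG or CACCTG). Itga4 held 1 GC box, Cdh6 held 2 that overlap, and Cdh10 held 1 TEAD site. Over the 27025 genes of the promoter table, 33.0% had a GC box, 12.6% a TEAD site, 4.43% an AP-1 site and 17.1% such an E-box in a window of this length. A match is a string of letters and does not show that a factor binds. Promoters of 31 of the 49 genes were in the table.

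Cdh24 and Cdh22, type II cadherins of the nervous system, were above background on all 6 arrays and did not pass. Cdh24 stood at 9.44, 9.92 and 10.29 against 9.23, 9.72 and 9.70 (difference 0.33, 95% interval -0.34 to 0.9996). Cdh22 stood at 7.95, 8.40 and 8.24 against 7.91, 8.24 and 7.32 (0.38, 95% interval -0.30 to 1.05). Cdh5, the VE-cadherin that defines endothelium, was above background on no array, as were Cdh7, Cdh8, Cdh19 and Cdh20. Of 12 endothelial markers Kdr, Flt1 and Emcn fell, while 7.75% of all genes fell. Cldn5, Sox17 and Sox18 did not pass (0.45, 0.37 and -0.02), and Pecam1, Tek, Tie1, Vwf, Esam and Robo4 were above background on no array. The summed signal was 1147 to 1454 on the tetraploid and 2857 to 3303 on the diploid arrays, where Flt1 read 10.48 to 10.75.

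Of the cadherins that are not classical, 1 fell, 0 rose and 4 did not pass, while 7.75% of all genes fell and 6.08% rose. Cdh13, the T-cadherin that is held in the membrane by a lipid anchor, spread more widely among tetraploid samples than any other gene of the set but Cdh10. The tetraploid arrays read 5.25, 7.47 and 8.62 and the diploid arrays 8.08, 7.82 and 8.02. The lines overlapped, and the difference was -0.86 (95% interval -2.68 to 0.96, limma adjusted p = 0.517). Cdh17, an intestinal cadherin, was called lower (2.83 to 4.30 against 5.35 to 5.84, adjusted p = 0.0156) from values that exceeded background nowhere. With every value raised to background its difference was 0.12 (adjusted p = 0.463). The call also ended without tetraploid array 2 or diploid array 1 or 3 (adjusted p 0.0502, 0.0575 and 0.0584). Cdh16, Cdh23 and Cdh26 were above background on no array.

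**Figure D5:**
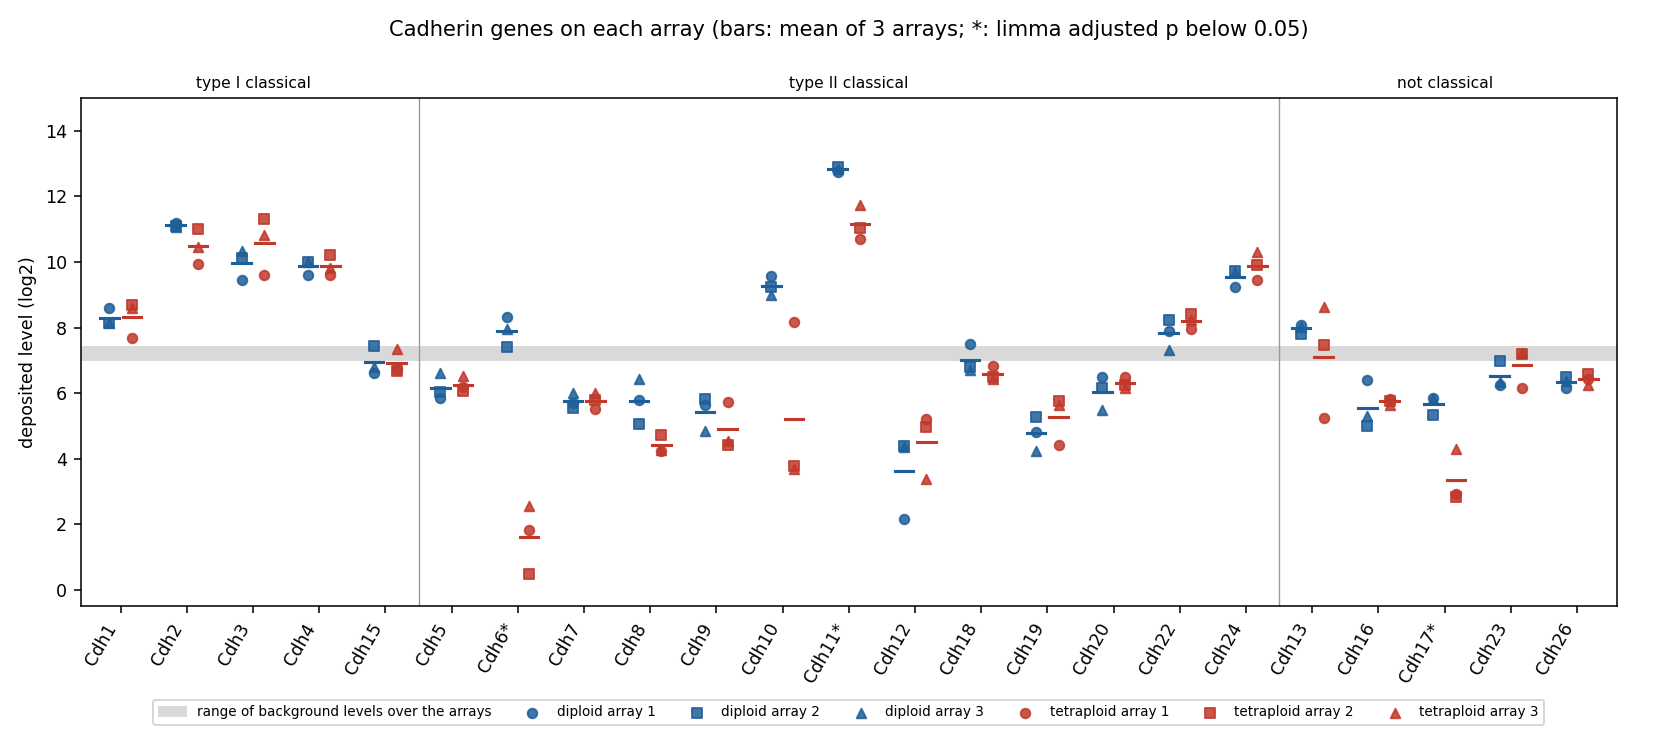
Deposited log2 level (vertical axis) of the 23 cadherin genes on each array, with diploid arrays in blue, tetraploid arrays in red, bars for the mean of 3 arrays and the background range of 7.01 to 7.41 in grey. Asterisks mark the 3 called genes; Cdh10 and Cdh13 show tetraploid array 1 apart from arrays 2 and 3, in opposite directions.

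Spread within a line was about equal in both lines for integrins and wider in the tetraploid line for cadherins and for all genes. The median SD over 3 arrays was 0.36 in the tetraploid and 0.35 in the diploid line for integrins, and 0.52 and 0.41 for cadherins. Over all genes it was 0.34 and 0.24. Cdh10 (SD 2.57 in the tetraploid line, 0.29 in the diploid line) and Cdh13 (1.71 and 0.14) were the least even in the tetraploid line.

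The ligands of integrins were lower as well where they were called. Among 33 matrix and cell surface ligands on the array there were 18 falls and 0 rises (54.5% fell, beside 7.75% of all genes), and the median difference was -0.93. At an unadjusted limma p below 0.05, 1 ligand gene was higher. Ccn2, a matricellular protein that integrins bind, was 11.5-fold lower (-3.52 ± 0.31, SE; limma adjusted p = 0.00136), Col4a2, a basement membrane collagen chain, 10.2-fold (adjusted p = 0.0221) and the thrombospondin gene Thbs2 9.27-fold (adjusted p = 0.0143). Fibronectin itself (Fn1) stood at 13.14 ± 0.22 against 13.94 ± 0.10 (SD, n = 3; limma adjusted p = 0.0450). That call ended in 5 of the 6 fits lacking an array, tetraploid array 1 excepted (0.0767 to 0.152), and with quantile normalization (0.0659). Of the tetraploid arrays 2 were above background for Col4a2. The falls numbered 10, 7 and 8 without diploid arrays 1, 2 and 3, and 12 without tetraploid array 2. The call of Col4a2 was lost when tetraploid array 2 or any diploid array was left out (adjusted p 0.0624 to 0.0778), and that of Thbs2 without diploid array 2 or 3 (0.0591 and 0.0517).

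Inside the cell, 15 of 47 focal adhesion genes on the array fell (31.9%, beside 7.75% of all genes) and 31 did not pass, at a median difference of -0.63. The tensin gene Tns2 rose (1.10, limma adjusted p = 0.0453), a call lost with quantile normalization (0.0531). The kinase gene Ptk2b stood at 2.38, 5.76 and 5.23 against 9.92, 9.69 and 10.15 and was at least 6.19-fold lower (limma adjusted p = 0.00906). Lims2, a LIM adaptor of the integrin-linked kinase complex, was at least 3.63-fold lower (adjusted p = 0.00767), and Kank1, a talin-binding protein of adhesion rims, was called lower (adjusted p = 0.0485) with 1 tetraploid array above background. The actin link Vcl fell from 12.45 ± 0.03 to 11.11 ± 0.54 (SD, n = 3; adjusted p = 0.0289), whereas talin-1 (Tln1) did not pass (-0.62, adjusted p = 0.108). The falls numbered 6 without any 1 diploid array. In those 3 fits the calls of Kank1, Vcl and Tns2 ended (adjusted p 0.0858 to 0.134). Kank1 also lost its call without tetraploid array 3 (0.0945), Vcl without tetraploid array 2 (0.0657) and Tns2 without tetraploid array 2 (0.120) or 3 (0.101).

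Catenins and other cadherin partners numbered 26, of which 7 fell, 1 rose and 18 did not pass (median -0.54). The falls were 26.9%, beside 7.75% of all genes. The catenins that carry the cadherin tail to actin differed in outcome. Beta-catenin (Ctnnb1) and alpha-catenin (Ctnna1) did not pass (-0.13 and -0.22, limma adjusted p 0.730 and 0.535), while plakoglobin (Jup) fell by 1.29 and p120-catenin (Ctnnd1) fell by 0.84 on the log2 scale (adjusted p 0.0129 and 0.0354). Ctnnd2, a neural relative of p120-catenin, was at least 1.87-fold lower (adjusted p = 0.0378). The nectin family adhesion genes Pvr and Nectin2 were 3.26-fold and 2.69-fold lower (adjusted p 0.00576 and 0.0145). Pkp4 was the member that rose (0.93, adjusted p = 0.0292). The falls numbered 1, 1 and 2 without diploid arrays 1, 2 and 3, and 4 without tetraploid array 2. Leaving out any diploid array ended the calls of Ctnnd2, Nectin2, Ctnnd1 and Pkp4 (adjusted p 0.0536 to 0.130). Without diploid array 1 or 2 that of Jup ended (0.0554 and 0.0626). Those of Ctnnd2 (0.0860 and 0.0778) and Ctnnd1 (0.0557 and 0.0639) also ended without tetraploid array 1 or 2, that of Ctnnd1 without tetraploid array 3 (0.0545), and that of Pkp4 without tetraploid array 2 (0.0598).

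Transcription factors known to repress Cdh1 were read as well. There were 11 on the array, of which 1 fell, 1 rose and 9 were not called (median 0.05). Each share, 9.09%, is near the 7.75% and 6.08% of all genes. Zeb2 stood at 8.97, 8.34 and 9.16 against 10.04, 10.01 and 10.06 (2.32-fold lower, limma adjusted p = 0.0255), and Tcf3 at 10.49, 10.80 and 10.54 against 9.40, 9.66 and 9.73 (2.02-fold higher, adjusted p = 0.0221). Snai1, Snai2, Zeb1 and Twist1 did not pass (adjusted p 0.607 to 0.929). Zeb2 and Tcf3 lost their calls when any diploid array was left out (adjusted p 0.0597 to 0.0917), and Tcf3 also without tetraploid array 2 (0.0579). With the replicate number as a block both calls ended (0.0520 and 0.0581), leaving 0 falls and 0 rises in that list. Of 8 desmosomal genes 2 fell, Pkp2 (1.83-fold lower, adjusted p = 0.0386) and Dsp, the latter above background on no array. With tetraploid array 3 left out Pkp2 was still called, but not with any of the other arrays left out (adjusted p 0.0598 to 0.127). Dsp lost its call without diploid array 2 or tetraploid array 2 or 3 (0.0557 to 0.0629) and with values raised to background (0.463).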

How the data were processed

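Transcript levels were measured in 6 samples, 3 of each of 2 lines. The authors deposited log2 values, 1 per probe set and array, made with Affymetrix Expression Console per the submitters' processing notes. The sources used here give neither its version nor the algorithm and normalization. The scale was checked: below a linear value of 1000, 100% of values came out at hundredths, with a tolerance of 0.001. Since array medians differed by at most 0.0435, values were used as deposited.

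Of 28944 probe sets, 21789 carried 1 gene symbol, 1621 several and 5534 none. Names were updated through the RefSeq table of GRCm38.p6 where the Entrez ID matched (21698 probe sets). The highest mean was kept for 998 genes with several probe sets. The tetraploid minus diploid contrast used lmFit and eBayes of limma 3.58.1 (R 4.3.3), Benjamini-Hochberg adjusted over 19939 genes, tested on simulated data. Where 1 line lay at or below background throughout, the fold is a lower bound from its values raised to background. An exact permutation test of 3 against 3 cannot go below p = 0.1. Arrays give no counts, and their number limits the precision. Members and lists were chosen with earlier results of these data known. Genes were named if called or above background on all arrays of a line. From each list the 3 largest called differences were named, and the list genes beyond these were picked for their role with values known. The labels do not say whether the numbers shared by the lines pair the arrays. Deviations of arrays of the same number correlated at 0.100, 0.0308 and -0.0461, which cannot settle it. A block was fitted as an alternative alone. Alternatives are given in the closing section. List genes without a single-gene probe set in the files used were not analysed here. The marker list for neural cells had 1 fall of 10 measured (Nefl), beside 7.75% of all genes. Nefl was above background on no array.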

Additional observations from a re-analysis of the deposited data

Results flagged for a closer look

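Cdh11 was also represented by 3 probe sets shared with 6820431F20Rik and 2610005L07Rik, which entered no comparison. All 3 stood higher in the tetraploid line, by 0.84, 0.87 and 0.82 on the log2 scale, with every tetraploid array above every diploid array, while the Cdh11 probe set itself was lower by -1.67. For the first of them the tetraploid arrays read 11.36, 12.05 and 12.02 and the diploid arrays 10.89, 10.92 and 11.11. They were singled out because they carry signal outside the main measurement above its level in the control line, and the differences were not tested. Which of the 3 genes gave the signal was not tested. Second probe sets of single genes had the sign of the first: Cdh18 differed by -0.35 beside -0.42, Cdh24 by 0.32 beside 0.33 and Itgad by 0.15 beside 0.11.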

How the results depend on the processing

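The calls rest on 3 arrays a line, and leaving out 1 array changed many of them. The falls among the 49 genes were 7 to 13 without 1 array and the rises 0 to 1, while over all genes the falls were 578 to 1552 and the rises 261 to 1040. Of the 16 called genes, 5 (Itga7, Itga8, Itgb3, Itga4 and Cdh6) were called in all 6 such fits, and Itga7, Itga8 and Itgb3 also under the other 8 alternatives. Itga4 was called under 7 and, for its low mean, was not among the genes above the median level. The rises among the 49 genes were 0 with quantile normalization, with array medians subtracted and with a replicate block, and 2 (Itga2b and Itga3) with only genes above the median level, with values raised to background, with 16 added on the linear scale and with a trend in the prior variance. The falls were 10 to 18 over these alternatives and the mean of all probe sets. Rises over all genes numbered 1960 with values raised to background and 1834 with a trend. With the replicate block they numbered 607, the block ended the calls of Itga2b and Itgb5 (adjusted p 0.111 and 0.113), and that of Cdh10 was gained (0.0471). Of the list genes named, Fn1, Vcl, Tns2, Ctnnd1, Pkp4, Pkp2, Zeb2 and Tcf3 lost theirs (0.0520 to 0.0969). The numbers are not known to pair the arrays, and falls numbered 1040 with the block. Raised to background, Itga2 and Cdh17 both became 0.12. Some uncalled values changed sign. Cdh4 was -0.0085 with quantile normalization and -0.0083 with medians subtracted. Cdh13, at -0.86 in the main fit, was 0.0719 without tetraploid array 1. Without 1 array Cdh4 ranged from -0.16 to 0.14, Cdh1 from -0.16 to 0.34, Itga6 from -0.60 to 0.0040, Itgad from -0.0203 to 0.23 and Cdh13 from -1.61 to 0.0719. Genes near background have only a bound.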
